A study of Homo sapiens with 24 samples.

Results

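The genes described here are 37 members of the cellular responses to endoplasmic reticulum (ER) stress and to a shortage of amino acids. They were listed by name and function, with earlier results of these data known. All 37 were found among the 33127 genes of the table, by GENCODE symbol through the transcript identifiers without version, and the 181 transcript rows that belong to them, of 119207 in all, were summed per gene. By role the set holds 3 ER stress sensors, 5 transcription factors (TFs), 4 genes of stress output and feedback, 11 chaperones and cochaperones, 3 disulfide isomerases, 4 genes of ER-associated degradation, 6 enzymes of amino acid and one-carbon synthesis, and 1 lipoprotein receptor.

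The counts come from A549, a long-cultured line of human lung adenocarcinoma cells, grown in medium with serum. Cells were exposed to 100 nM dexamethasone (dex), a synthetic glucocorticoid (GC) that activates the GC receptor, or to an equal volume of its solvent ethanol (EtOH, 0.02% of the medium). Polyadenylated RNA was sequenced at 6 time points, every 2 hours from 1 to 11 hours of exposure, and each treatment had 2 libraries per time point, or 24 in all. The labels call the 2 libraries of a group biological replicates without saying whether they came from separate cultures, so the p-values measure the spread between these libraries. No agent that causes ER stress or withdraws amino acids was used, so the EtOH libraries show the basal level of these genes and the dex libraries show their level under GC exposure.

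Secretory and membrane proteins fold in the ER. When unfolded proteins accumulate there, 3 sensors in the ER membrane, PERK (the product of *EIF2AK3*), IRE1 (*ERN1*) and ATF6, start the unfolded protein response. IRE1 splices the mRNA of the TF XBP1, ATF6 is cut to release a TF, and both TFs raise chaperones and degradation genes. PERK phosphorylates the translation factor eIF2α, which slows protein synthesis while the TF ATF4 is translated. The same step is reached from amino acid shortage through another eIF2α kinase, and ATF4 is known to raise serine, asparagine and one-carbon enzymes. Much of this control acts on protein, so mRNA levels show only the part that reaches transcript abundance.

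Between 6708864 and 13748598 reads were counted per dex library and between 7813353 and 13619043 per EtOH library, and the 37 members took 0.576% to 0.655% of them. Levels are given as CPM, counts scaled to a common library size, with library sizes adjusted by the TMM method. The GC response was present: of 4 tested genes known to respond to GCs, 3 were called higher at 1 hour and 4 at each later time, with *TSC22D3* at 177 and 161 CPM in the dex libraries of 3 hours against 7.55 and 7.71 with EtOH (log2 fold change 4.46, standard error (SE) 0.13), and *FKBP5* at 223 and 216 against 20.6 and 21.4 (log2 fold change 3.38, SE 0.11). The 5 epithelial markers summed to between 3241 and 5221 CPM with EtOH and between 3872 and 10640 with dex. The fibroblast markers summed to at most 24.85 CPM in any library, the leukocyte markers, of which 2 of 5 were at 0 in all libraries, to at most 9.403, and the 3 endothelial markers in the table to at most 1.061; their part in the results below was not tested. In the dex libraries of 11 hours 7 members were more than 1.5 times apart, among them *MANF* (37.4 and 75.9 CPM) and *PHGDH* (15.4 and 31.7 CPM). In the dex libraries of 1 hour 7 members were also that far apart, against 0 to 4 in each of the other 10 groups. In such bulk RNA, fewer cells of a kind and less RNA per cell cannot be told apart.

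All 37 members passed the filter on low counts, which kept 19897 features (genes, and transcripts with no gene in the annotation). Per kilobase of transcript their basal levels spanned a wide range. *HSP90B1*, which encodes the ER form of the HSP90 chaperone, had a median of 631 CPM per kilobase (CPM divided by transcript length) over the 12 EtOH libraries, followed by *CANX* (447.8) and *CALR* (391.6), the lectin chaperones calnexin and calreticulin. *ATF3* (1.69) and *CHAC1* (0.649), a stress-induced TF and a glutathione-degrading enzyme, were the lowest, and single libraries held few of their counts. *ATF3* had 6 to 54 counts per dex library and 14 to 38 per EtOH library, and *CHAC1* 2 to 19 and 5 to 14. How large a difference could be detected at such counts was not tested.

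The promoters of the members were examined for the DNA letters through which ATF6, XBP1 and ATF4 are known to act, because members with the same letters can then be compared in the counts. RefSeq windows (GRCh38.p14) of 250 bases before to 50 bases after the start were at hand for 34 members. The ER stress response element, ERSE, was searched on both strands as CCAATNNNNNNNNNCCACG and was found in 6 of 34 members (17.6%), against 0.0806% of 27305 promoters. The members were *XBP1*, *HSPA5*, *HSP90B1* with a match at each of 2 places, *CALR*, *CANX* and *CRELD2*. The amino acid response letters TGATGNAA, called CARE here, were found in 4 of 34 (11.8%), against 3.67% of all promoters, and the members were *ATF3*, *CHAC1*, *HERPUD1* and *ASNS*. The shorter ATF6 and XBP1 letters TGACGTG were found in 1 of 34 (*HYOU1*), against 2% of all. The palindromic GC receptor letters GAACANNNTGTTC were found in 0 of 34, against 0.0256% of all. No member held more than 1 of these motifs, so none overlapped another. The stretches below show the matches with a few bases to each side, 5′ to 3′ on the strand of the gene, with the fixed letters of the motif in capitals. A match to these letters is a description of the window and not of binding. The members were listed by their function in the ER stress and amino acid responses. Their shares against all promoters are therefore not a test of enrichment.
XBP1, ERSE, chr22:28800598-28800626 (minus strand): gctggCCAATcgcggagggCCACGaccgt
HSPA5, ERSE, chr9:125241386-125241414 (minus strand): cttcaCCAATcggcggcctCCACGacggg
HSP90B1, ERSE farther from the start, chr12:103930211-103930239 (plus strand): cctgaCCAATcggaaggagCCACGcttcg
HSP90B1, ERSE nearer to the start, chr12:103930316-103930344 (plus strand): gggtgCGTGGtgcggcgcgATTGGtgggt
CALR, ERSE, chr19:12938379-12938407 (plus strand): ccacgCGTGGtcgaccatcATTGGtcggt
CANX, ERSE, chr5:179698773-179698801 (plus strand): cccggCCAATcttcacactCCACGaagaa
CRELD2, ERSE, chr22:49918549-49918577 (plus strand): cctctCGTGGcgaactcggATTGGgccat
ATF3, CARE, chr1:212565205-212565234 (plus strand): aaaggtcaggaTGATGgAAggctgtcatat
CHAC1, CARE, chr15:40953251-40953280 (plus strand): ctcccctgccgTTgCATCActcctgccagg
HERPUD1, CARE, chr16:56931955-56931984 (plus strand): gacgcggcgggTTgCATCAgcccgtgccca
ASNS, CARE, chr7:97872458-97872487 (minus strand): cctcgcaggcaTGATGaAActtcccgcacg

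Dex was compared with EtOH at each time point, 2 libraries against 2, to see which members of the stress program changed and when. The quasi-likelihood F-test of edgeR was used, its p-values were adjusted by the Benjamini-Hochberg method over the 19897 features, and a member was called where this edgeR adjusted p did not exceed 0.1. No member was called at 1 hour, when 0.824% of all features were (0.488% higher and 0.337% lower). At that time 7 of 37 members had an unadjusted p under 0.05 in edgeR, as did 1303 of 19897 features. DESeq2 also called 0 members at 1 hour. At 3 hours 5 members were called, all higher with dex (13.5% of the members, against 12.9% of all features called, 7.85% higher and 5.02% lower). At 5 hours 15 were called, 9 higher and 6 lower, or 40.5% against a background of 23.1%. The number was 18 at 7 hours, 13 higher and 5 lower, or 48.6% against 25.8%. At 9 hours it was 11, with 5 higher and 6 lower (29.7% against 18.1%). At 11 hours 3 were called, all higher (8.11% against 8.68% of all features, 5.39% higher and 3.29% lower). The shares at 3 and 11 hours were thus near the background. Those at 5, 7 and 9 hours were above it, but at 9 hours DESeq2 called 4 members, or 10.8% against 10.2% of all features.

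**Figure D1:**
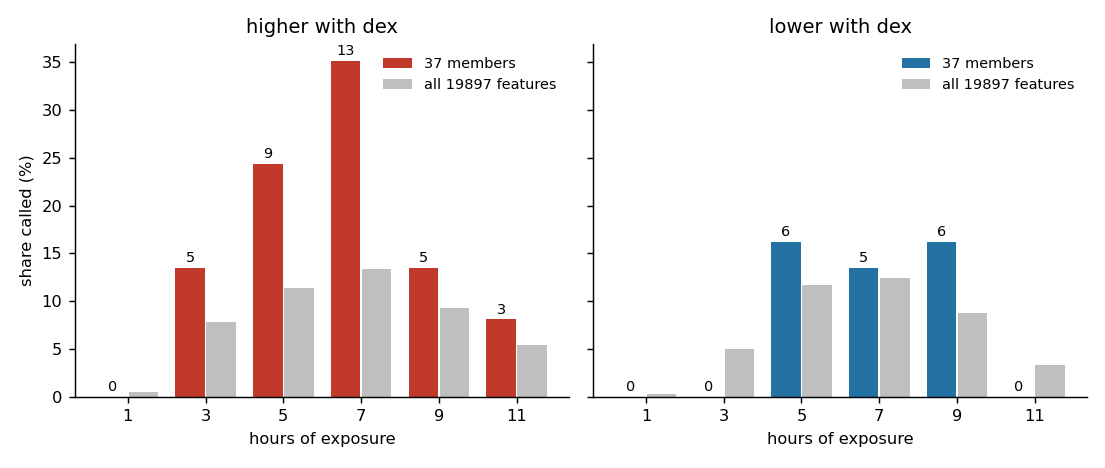
Share of the 37 members (colored bars, with the number of members above each) and of all 19897 features (gray bars) called higher (left) or lower (right) with dex at each time point, in percent. Higher calls among members peaked at 7 hours (13 members, 35.1%, against 13.4% of all features), and lower calls among members were present from 5 to 9 hours.

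By direction, at 7 hours 35.1% of members were called higher, against 13.4% of all features, and 13.5% were called lower, against 12.4%. At 5 hours the shares were 24.3% against 11.4% higher and 16.2% against 11.7% lower, and at 9 hours they were 13.5% against 9.31% and 16.2% against 8.78%. The median size of the log2 fold change, whatever its sign, was 0.25 for the members and 0.25 for all features at 5 hours, 0.21 and 0.24 at 7 hours, and 0.27 and 0.26 at 9 hours. The signed median of the members, which went both ways, lay between -0.044 at 9 hours and 0.108 at 11 hours, and that of all features between -0.021 and 0.008. The libraries of the 2 treatments did not overlap for 16 of 37 members at 1 hour (34.8% of all features), 21 at 3 hours (50.6%), 25 at 5 hours (54.4%), 29 at 7 hours (57%), 24 at 9 hours (53.9%) and 17 at 11 hours (45.1%). In all, 24 members (64.9%) were called at 1 or more time points, against 41.4% of all features, and 13 at none. At 2 or more time points 14 were called (37.8% against 22.3%), 9 higher (24.3% against 11.2%) and 5 lower (13.5% against 10.3%). No member was called in both directions, as 1.18% of all features were.

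Single libraries were left out in a joint fit, in which the 12 groups share 1 estimate of the spread. That change of fit alone moved the counts, and 15 of the 52 calls of the separate fits were already lost in it. With all 24 libraries it called 3 members at 3 hours (8.11%, against 9.77% of all features) and 11 at 5 hours (29.7% against 21%). It called 9 at 7 hours (24.3% against 18.5%), 15 at 9 hours (40.5% against 20.6%) and 10 at 11 hours (27% against 14.9%). Against these counts, leaving out dex replicate 1 left 1 call at 3 hours. At 5 and 7 hours fewer members, and fewer of all features, were called whichever library was left out. The same held at 9 hours, where the share of members called without dex replicate 1 was near that of all features. At 11 hours more members, and more of all features, were called without dex replicate 1, and fewer of both without any other library. Without EtOH replicate 1 of 11 hours the share of members was near that of all features. Of the 52 calls of a member at a time point, 15 held under each of 12 alternatives, which include leaving out each of the 4 libraries of that time point. They were *EIF2AK3* from 3 to 11 hours, *ATF6*, *TRIB3*, *HSPA5* and *PSAT1* at 5 and 7 hours, *ASNS* at 5 hours, and *XBP1* at 9 hours.

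**Figure D2:**
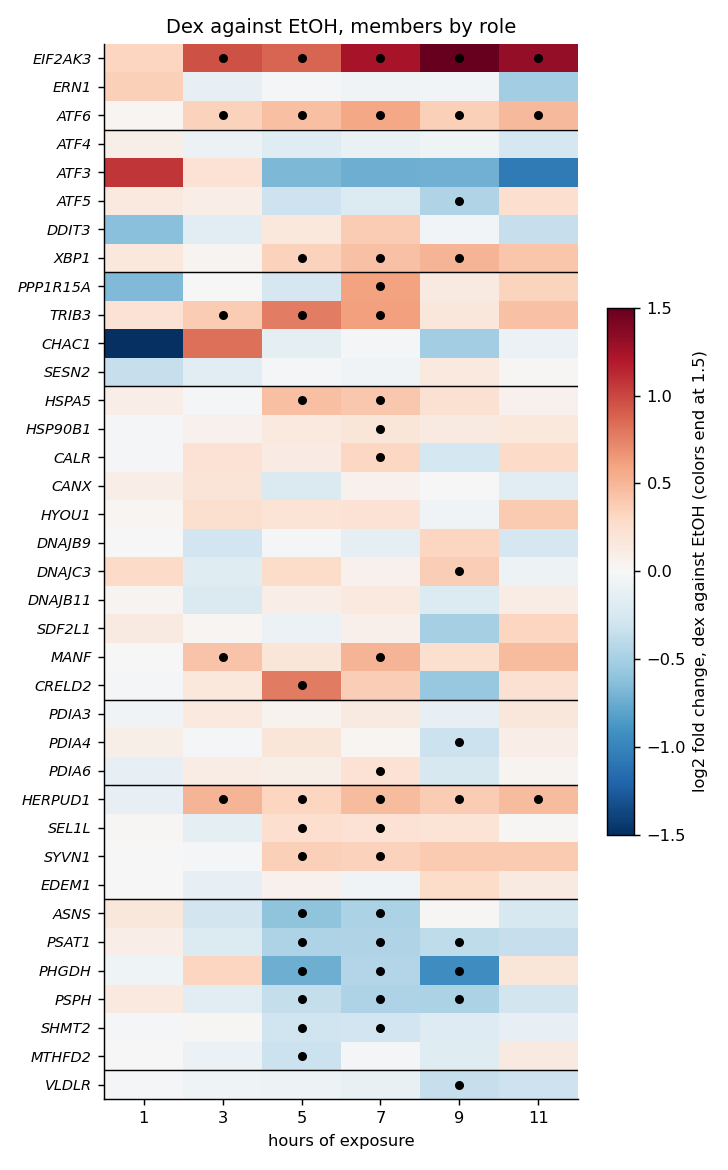
Log2 fold change of dex against EtOH for the 37 members (rows, in blocks by role: sensors, TFs, stress output and feedback, chaperones, disulfide isomerases, ER-associated degradation, enzymes, and *VLDLR*) at each time point (columns). Red is higher and blue lower with dex, dots mark calls at an adjusted p of at most 0.1, and the colors end at 1.5 in each direction. *EIF2AK3* has the deepest red among the calls, the dark cells of *CHAC1* and *ATF3* at 1 hour were not called, and the 6 enzymes carry all 6 lower calls of 5 hours.

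Among the sensors, *EIF2AK3* (chromosome 2 from 88556741 to 88627576 of GRCh38, minus strand), which encodes the eIF2α kinase PERK, had the largest fold change of all called members and was called at each time from 3 to 11 hours. With EtOH it lay between 21.0 and 31.6 CPM in the 10 libraries of 3 to 11 hours, and with dex between 51.0 and 72.9. At 3 hours the dex libraries had 54.0 and 55.2 CPM against 28.2 and 27.9, a log2 fold change of 0.96 (SE 0.12, edgeR adjusted p = 4.25e-07). The 2 treatments were already apart at 1 hour, at 32.7 and 30.8 against 24.95 and 26.0 CPM, but with an edgeR adjusted p of 0.717. At 5 hours the dex libraries had 54.6 and 51.0 CPM against 31.6 and 26.2 (log2 fold change 0.88, SE 0.13), and at 7 hours 57.7 and 60.7 against 24.8 and 25.3 (1.24, SE 0.11). The log2 fold change was highest at 9 hours, at 62.3 and 65.0 against 21.0 and 23 CPM, or 1.53 (SE 0.13, 2.90-fold, edgeR adjusted p = 1.06e-06). At 11 hours the libraries had 65.8 and 72.9 against 27.3 and 28.2 CPM (1.32, SE 0.15).

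*ATF6* (chromosome 1 from 161766294 to 161964070, plus strand) encodes the sensor that is itself a TF, and it also rose from 3 to 11 hours. Its dex libraries of those times lay between 81.4 and 95.3 CPM and its EtOH libraries between 59.0 and 68.7, with no overlap. At 1 hour they were alike, at 60.6 and 63.9 CPM with dex and 58.8 and 63.1 with EtOH. The log2 fold change was 0.35 at 3 hours, 0.45 at 5, 0.57 at 7 (SE 0.090, 1.49-fold, edgeR adjusted p = 5.38e-06), 0.36 at 9 and 0.49 at 11 hours. DESeq2 called *ATF6* at 5 and 7 hours but not at 3, 9 or 11 hours. The call of 3 hours was lost without dex replicate 1 (log2 fold change 0.34) and without either EtOH replicate (0.36 without the first and 0.33 without the second), while that of 7 hours held in each case.

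*ERN1*, which encodes the sensor and endonuclease IRE1, was called at no time point. It had 25.2 and 22.3 CPM with dex at 1 hour against 18.2 and 19.1 with EtOH (log2 fold change 0.36, edgeR adjusted p = 0.702), and 16.5 and 10.7 against 19.9 and 19.3 at 11 hours (-0.53, edgeR adjusted p = 0.240). The libraries of both times did not overlap. From 3 to 9 hours its log2 fold changes lay between -0.118 and -0.034.

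*XBP1* (chromosome 22 from 28794555 to 28800597, minus strand), the TF downstream of IRE1, was the TF called higher. Its EtOH libraries lay between 47.0 and 55.6 CPM from 3 to 11 hours. With dex it had 55.8 and 54.2 CPM at 3 hours, where the treatments overlapped, then 64.7 and 71.8 at 5 hours, 70.9 and 65.8 at 7 hours, 73.4 and 66.2 at 9 hours and 63.6 and 63.4 at 11 hours. The log2 fold change was 0.34 at 5 hours, 0.45 at 7 hours (SE 0.095, edgeR adjusted p = 0.000543) and 0.51 at 9 hours (SE 0.12, edgeR adjusted p = 0.0119). At 11 hours it was 0.41 with libraries that did not overlap, but the edgeR adjusted p was 0.131. The call of 5 hours was lost without dex replicate 2 (log2 fold change 0.28), and DESeq2 did not make it. That of 7 hours was lost with the transcript with most counts.

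Activated IRE1 is known to remove 26 bases from the mRNA of *XBP1*, and the table lists a transcript, ENST00000344347, without them. In GENCODE release 29 they are bases 566 to 591 of ENST00000216037, in capitals here with 12 bases to each side. Because the bases around both ends repeat, the stretch can also be placed slightly further on with the same result.
XBP1 mRNA, ENST00000216037: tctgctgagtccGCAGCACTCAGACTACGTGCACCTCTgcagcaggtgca

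The transcript without these 26 bases took 10.1% to 14.8% of the *XBP1* counts in the dex libraries (median 11.3%) and 8.29% to 13.6% in the EtOH libraries (median 11.0%), and these ranges overlap. The transcript without the 26 bases also lacks bases 1 to 73 and 1231 to 1850 of the transcript shown above. The forms thus differ outside the 26 bases too, and reads from within those stretches match only the form that holds them. Reads of 50 bases from the stretches they share match both forms unless they cross the junction. How such reads were placed is not given in the sources used here. For these reasons this share is not a measure of splicing.

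Of the other TFs only *ATF5* was called. *ATF4*, the TF that links eIF2α to amino acid genes, was called at no time point: it had 91.7 and 96.9 CPM with dex at 5 hours against 112 and 102 with EtOH (log2 fold change -0.18, edgeR adjusted p = 0.276), and 92.1 and 92.2 against 116 and 105 at 11 hours (-0.26, edgeR adjusted p = 0.379). ATF4 is known to be controlled mainly in translation, which these counts do not show. *ATF5*, a related TF, fell at 9 hours, with 13.8 and 13.3 CPM against 17.7 and 19.2 (log2 fold change -0.45, SE 0.16, edgeR adjusted p = 0.0804), a call lost when any 1 of the 4 libraries was left out, when it lay between -0.511 and -0.393. *DDIT3*, which encodes the stress-induced TF CHOP, was called at no time point and stayed between 2.42 and 7.06 CPM with dex and between 3.82 and 6.93 with EtOH.

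*ATF3*, a TF induced early in many stresses, had the widest swing among the TFs. At 1 hour it had 5.32 and 4.85 CPM with dex against 2.09 and 2.74 with EtOH (log2 fold change 1.07, SE 0.28, edgeR adjusted p = 0.121). From 5 to 11 hours it was at 0.862 to 1.79 CPM with dex and 1.51 to 3.04 with EtOH, with log2 fold changes between -0.672 and -1.06, and at 11 hours the edgeR adjusted p was 0.149. No single time point was called, but the change of its dex effect over time was (edgeR adjusted p = 0.0111 for the interaction).

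Among the genes of stress output and feedback, *TRIB3*, which encodes a pseudokinase that binds ATF4 and AKT, rose at 3, 5 and 7 hours. At 5 hours it had 40.7 and 46.0 CPM with dex against 23.1 and 27.8 with EtOH, and the log2 fold change was 0.76 (SE 0.13, 1.70-fold, edgeR adjusted p = 1.40e-05), and at 7 hours 37.1 and 34.4 against 22.6 and 24.3 (0.61, SE 0.11). At 3 hours it had 38.2 and 40.6 against 30.1 and 30.5 CPM (0.38), a call lost in the joint fit with all 24 libraries (edgeR adjusted p = 0.117). At 9 hours the EtOH libraries were 25.9 and 36.3 CPM and overlapped those of dex. *PPP1R15A*, or GADD34, the subunit that directs a phosphatase to eIF2α, had 3.75 and 6.82 CPM with dex against 7.39 and 8.57 at 1 hour (log2 fold change -0.66, edgeR adjusted p = 0.593), and rose at 7 hours, with 8.38 and 8.33 against 4.65 and 6.36 (0.60, SE 0.21, edgeR adjusted p = 0.0360). That call was lost in the joint fit with all 24 libraries (edgeR adjusted p = 0.159), and without single libraries the log2 fold change ran from 0.41 to 0.87. *CHAC1* had 2 counts in each dex library of 1 hour against 7 and 14 with EtOH (log2 fold change -1.73, SE 0.75, edgeR adjusted p = 0.693), the largest difference of any member and not called. It and *SESN2*, a regulator of the growth kinase complex mTORC1 (3.65 to 9.30 CPM), were called at no time point.

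**Figure D3:**
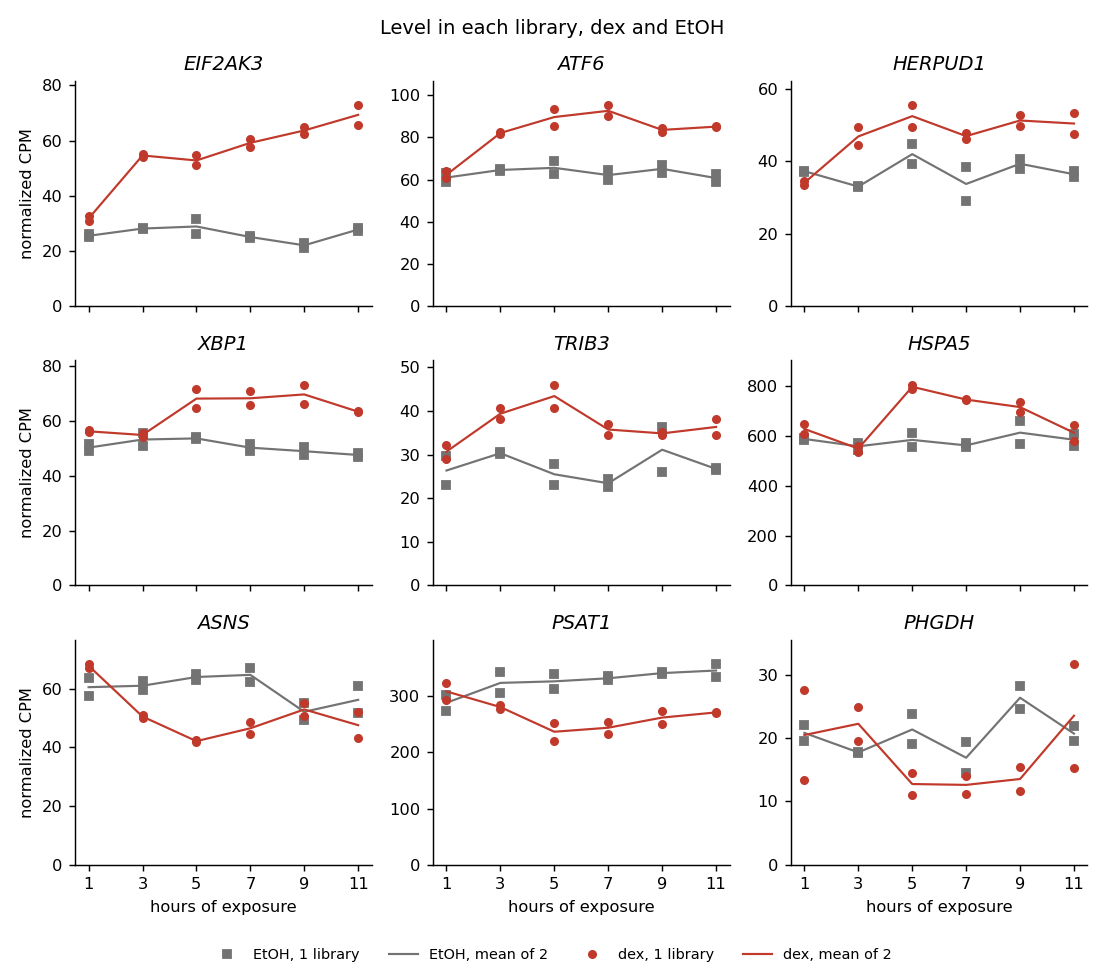
Level of 9 members in each library, in TMM-scaled CPM (vertical axes start at 0), against hours of exposure. Red circles are single dex libraries and gray squares single EtOH libraries, and lines join the means of 2. *EIF2AK3* and *ATF6* stand above EtOH from 3 hours on and *PSAT1* stands below it, while *HSPA5* is highest at 5 hours and *ASNS* lowest with dex at that time.

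Among the chaperones, *HSPA5* (chromosome 9 from 125234853 to 125241330, minus strand), which encodes the ER HSP70 BiP that holds the sensors inactive, rose at 5 and 7 hours. It had 562 and 538 CPM with dex at 3 hours against 572 and 546 with EtOH, and then 808 and 790 against 614 and 557 at 5 hours (log2 fold change 0.45, SE 0.10, 1.36-fold, edgeR adjusted p = 0.000683). At 7 hours it had 750 and 745 against 555 and 571 CPM (0.41, SE 0.070, edgeR adjusted p = 2.63e-05). By 11 hours its libraries overlapped again, at 582 and 646 CPM with dex against 610 and 562 (0.067).

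*HSP90B1* and *CALR* rose at 7 hours, with 1312 and 1314 CPM against 1123 and 1184 (log2 fold change 0.19, SE 0.070) and with 457 and 444 against 363 and 367 CPM (0.30, SE 0.071). Both calls were lost in the joint fit with all 24 libraries (edgeR adjusted p = 0.156 and 0.185). *CALR* at 11 hours had 402 and 608 CPM in its 2 dex libraries against 428 and 402 with EtOH, so the treatments overlapped. *MANF*, a secreted ER stress protein that binds BiP, rose at 3 hours (45.7 and 34.6 CPM against 28.3 and 31.2, log2 fold change 0.43) and 7 hours (48.7 and 47.1 against 29.6 and 37.9, 0.51, SE 0.11). Both calls were lost in the joint fit with all 24 libraries (edgeR adjusted p = 0.427 and 0.254), and without dex replicate 1 the value of 3 hours was 0.23. *CRELD2*, a secreted protein of the same response, rose at 5 hours only, with 7.54 and 8.29 CPM against 4.42 and 4.75 (0.78, SE 0.23, edgeR adjusted p = 0.0117). This call held without dex replicate 1 and was lost without dex replicate 2 (0.72). It was also lost without either EtOH replicate (0.73 without the first, 0.84 without the second). DESeq2 did not make this call, and it was lost with the transcript with most counts (0.685). *DNAJC3*, a BiP cochaperone, rose at 9 hours, with 53.7 and 57.8 CPM against 43.9 and 42.7 (0.37, SE 0.12, edgeR adjusted p = 0.0638), and was lost without replicate 2 of dex (0.33) or of EtOH (0.35).

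The remaining 5 chaperones were called at no time point. *CANX* had log2 fold changes between -0.215 and 0.193, *HYOU1*, an ER nucleotide exchange factor, between -0.047 and 0.398, *DNAJB9* between -0.284 and 0.317, *DNAJB11* between -0.221 and 0.143, and *SDF2L1* between -0.493 and 0.319. The last 3 are partners of BiP. At 1 or more time points 15 of 37 members (40.5%) and 21.3% of all features were called higher. Of the 6 members with ERSE letters 5 were (*XBP1*, *HSPA5*, *HSP90B1*, *CALR* and *CRELD2*), but *CANX*, which also holds them, was not, and *HYOU1*, with the shorter letters, was not.

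The disulfide isomerases form and rearrange the disulfide bonds of folding proteins, and their 3 members showed no common direction. *PDIA6* rose at 7 hours, with 492 and 510 CPM against 414 and 450 (log2 fold change 0.21, SE 0.072, edgeR adjusted p = 0.0300), a call lost in the joint fit with all 24 libraries (edgeR adjusted p = 0.12). *PDIA4* fell at 9 hours, with 138 and 160 CPM against 172 and 202 (-0.32, SE 0.12, edgeR adjusted p = 0.0984), a call that was lost with the library scaling of DESeq2 (-0.31), without dex replicate 1 (-0.20) and without EtOH replicate 2 (-0.20). *PDIA3* was called at no time point and had log2 fold changes between -0.122 and 0.174.

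In ER-associated degradation, by which misfolded proteins are moved out of the ER to the proteasome, *HERPUD1* (chromosome 16 from 56932048 to 56944863, plus strand), a membrane protein of the degradation complex, rose from 3 to 11 hours. At 1 hour it had 34.6 and 33.5 CPM with dex against 37.1 and 37.4. At 3 hours it had 49.3 and 44.4 against 33.2 and 32.8 CPM, a log2 fold change of 0.50 (SE 0.12, edgeR adjusted p = 0.00479). It had 55.5 and 49.4 CPM against 39.3 and 44.7 at 5 hours (0.32), 47.9 and 46.0 against 28.97 and 38.5 at 7 hours (0.48, SE 0.12), 52.9 and 49.6 against 37.97 and 40.6 at 9 hours (0.38) and 47.6 and 53.3 against 37.3 and 35.5 at 11 hours (0.47). The treatments did not overlap at any of these times. DESeq2 did not make the calls of 5, 9 and 11 hours, and those of 3, 9 and 11 hours were lost with the transcript with most counts. Single libraries decided several of these calls: without dex replicate 1 the log2 fold change was 0.43 at 3 hours, 0.24 at 5 and 0.36 at 9, without EtOH replicate 1 it was 0.23 at 5, 0.30 at 7 and 0.33 at 9, and without EtOH replicate 2 it was 0.43 at 11 hours, and none of these 7 passed.

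*SYVN1* and *SEL1L*, which encode the ubiquitin ligase HRD1 and its adaptor, rose together at 5 and 7 hours. *SYVN1* had 32.0 and 34.2 CPM with dex at 5 hours against 24.3 and 27.3 (log2 fold change 0.35, SE 0.13) and 34.8 and 31.3 against 27.1 and 25.3 at 7 hours (0.34, SE 0.11). *SEL1L* had 197 and 183 CPM against 152 and 167 at 5 hours (0.25, SE 0.10) and 210 and 218 against 178 and 191 at 7 hours (0.21, SE 0.076). In the joint fit with all 24 libraries both calls of *SEL1L* (edgeR adjusted p = 0.125 and 0.226) and that of *SYVN1* at 7 hours (0.108) were lost. That of *SYVN1* at 5 hours held in it and was lost when any 1 of the 4 libraries was left out (0.27 to 0.44). *EDEM1*, a lectin that directs glycoproteins to degradation, was called at no time point (-0.118 to 0.273).

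The enzymes of amino acid and one-carbon synthesis went the other way. At 5 hours all 6 were called lower, and they were the only members called lower, while 11.7% of all features were. At 7 hours 5 of 6 were called lower (12.4% of all features) and at 9 hours 3 of 6 (8.78%), and at 1, 3 and 11 hours none of the 6 was called. Their median log2 fold change was 0.047 at 1 hour, -0.41 at 5 hours, -0.44 at 7 hours and -0.18 at 11 hours.

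*ASNS* (chromosome 7 from 97852118 to 97872542, minus strand) makes asparagine and is a known target of ATF4. It had 67.2 and 68.5 CPM with dex at 1 hour against 63.5 and 57.5 with EtOH, and 50.2 and 50.9 against 62.6 and 59.5 at 3 hours (log2 fold change -0.27, edgeR adjusted p = 0.141). At 5 hours it was lowest, with 42.4 and 41.9 CPM against 64.9 and 63.1, or 1.52-fold lower (-0.60, SE 0.12, edgeR adjusted p = 8.81e-05). At 7 hours it had 44.6 and 48.5 against 67.2 and 62.3 CPM (-0.48, SE 0.098), a call with an edgeR adjusted p of 0.103 without dex replicate 1 (-0.40). At 9 hours the treatments overlapped, at 55.3 and 50.6 against 49.3 and 55.0 CPM.

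*PHGDH*, *PSAT1* and *PSPH* catalyze the successive steps from a glycolytic intermediate to serine, and all 3 fell at 5, 7 and 9 hours. *PSAT1* (chromosome 9 from 78297143 to 78330093, plus strand) lay between 221 and 284 CPM with dex in the 10 libraries of 3 to 11 hours and between 305 and 357 with EtOH, with no overlap. It had 221 and 252 CPM against 340 and 312 at 5 hours (log2 fold change -0.46, SE 0.10, edgeR adjusted p = 0.000558), 233 and 254 against 335 and 328 at 7 hours (-0.45, SE 0.074, edgeR adjusted p = 1.49e-05), and 250 and 273 against 342 and 339 at 9 hours (-0.38). The call of 9 hours was lost without dex replicate 1 (-0.30). At 11 hours it had 272 and 269 CPM against 357 and 333 (-0.35, edgeR adjusted p = 0.161).

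*PSPH* had 26.1 and 30.3 CPM with dex against 37.3 and 34.8 at 5 hours (log2 fold change -0.36, SE 0.13), 26.8 and 24.5 against 34.5 and 36.6 at 7 hours (-0.47, SE 0.11, edgeR adjusted p = 0.00192), and 25.1 and 25.8 against 33.2 and 37.8 at 9 hours (-0.48, SE 0.14). Its libraries did not overlap at these times. DESeq2 did not make the calls of 5 and 9 hours. The calls of 7 and 9 hours were lost with the transcript with most counts. The call of 5 hours was lost without dex replicate 1 (-0.24) or either EtOH replicate (-0.31 and -0.41), that of 7 hours without replicate 2 of dex (-0.39) or EtOH (-0.41), and that of 9 hours without EtOH replicate 2 (-0.38).

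*PHGDH* differed widely between libraries of a group. With dex it had 13.4 and 27.6 CPM at 1 hour and 15.4 and 31.7 at 11 hours. At 5 hours it had 14.4 and 11.1 against 23.7 and 19 CPM (log2 fold change -0.74, SE 0.17, edgeR adjusted p = 0.000885), at 7 hours 11.2 and 14.01 against 14.4 and 19.4 (-0.44, SE 0.16), and at 9 hours 11.6 and 15.5 against 24.6 and 28.2 (-0.93, SE 0.17, 1.91-fold lower, edgeR adjusted p = 0.00147). The calls of 5 and 7 hours were lost in the joint fit with all 24 libraries (edgeR adjusted p = 0.170 and 0.494). That of 9 hours held in it and was lost when any 1 of the 4 libraries was left out (-1.16 to -0.75). At 7 hours the value was -0.25 without dex replicate 1 and -0.19 without EtOH replicate 2.

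*SHMT2* and *MTHFD2* are mitochondrial enzymes that pass on the carbon unit of serine. *SHMT2* fell at 5 hours, with 48.2 and 45.4 CPM against 60.9 and 53.8 (log2 fold change -0.29, SE 0.12), and at 7 hours, with 47.8 and 44.7 against 59.7 and 53.1 (-0.29, SE 0.10). Both calls were lost in the joint fit with all 24 libraries (edgeR adjusted p = 0.106 and 0.129). Its counts were spread over 24 transcripts, and the one with most counts gave -0.049 at 5 hours and -0.21 at 7 hours. *MTHFD2* was called lower at 5 hours (-0.32, SE 0.13, edgeR adjusted p = 0.0903), but with 153 and 212 CPM with dex against 211 and 243 its libraries overlapped. The edgeR adjusted p was 0.111 in the joint fit with all 24 libraries, and without dex replicate 1 the value was -0.088 and without EtOH replicate 2 it was -0.21. *VLDLR*, the very low density lipoprotein receptor, which PERK signaling is known to raise, fell at 9 hours, with 123 and 130 CPM against 172 and 149 (-0.35, SE 0.11, edgeR adjusted p = 0.0573), a call lost without dex replicate 1 (-0.29) or EtOH replicate 1 (-0.24). An antisense transcript, *VLDLR-AS1*, is also counted in the table, and the use of strand in counting is not given in the sources used here. At 11 hours *VLDLR* had 127 and 128 against 169 and 148 CPM (-0.31, edgeR adjusted p = 0.263).

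Of the 4 members with CARE letters, *HERPUD1* rose, *ASNS* fell, and *ATF3* and *CHAC1* were called at no time point.

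Whether the dex effect changed with time was asked in one fit over 24 libraries, by an F-test of the 5 interaction terms. It passed for 8 of 37 members, or 21.6%, against 13.8% of all features. *EIF2AK3* had the smallest edgeR adjusted p (4.87e-05): its log2 fold change went from 0.32 at 1 hour to 1.53 at 9 hours. *ASNS* (edgeR adjusted p = 0.00687), *ATF3* (0.0111), *PSAT1* (0.0269) and *HSPA5* (0.0411) followed, and *ATF6* (0.0786), *DNAJC3* (0.0854) and *HERPUD1* (0.0880) passed closer to the threshold. With EtOH alone, 3 members changed over the 6 time points, or 8.11%, against 3.16% of all features: *CALR* (edgeR adjusted p = 0.0760), *SESN2* (0.0788) and *MANF* (0.0814). The means of *SESN2* with EtOH were 8.90 CPM at 3 hours and 5.56 at 7 hours. These counts also turned on single libraries. Without dex replicate 1 of 11 hours the interaction passed for more members, and more of all features, than with all libraries. Fewer of both passed without dex replicate 2 of 3 hours, EtOH replicate 1 of 3 hours or EtOH replicate 2 of 1 hour. The same held without dex replicate 1 of 1, 3 or 9 hours or dex replicate 2 of 9 hours. It also held without EtOH replicate 1 of 1 hour and without EtOH replicate 2 of 3 or 5 hours. The EtOH time course passed for more members and more of all features without EtOH replicate 1 of 9 hours. It passed for fewer members without any library of 1, 3, 5 or 11 hours or without EtOH replicate 1 of 7 hours. Fewer of all features passed in these cases too, except without EtOH replicate 2 of 3 hours, when more did.

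Genes of the same pathways that are not members were counted in the same fits, from lists written with earlier results of these data known. Of 43 tested other ER folding and quality control genes, 5 were called higher and 1 lower at 3 hours, 13 higher and 1 lower at 5 hours, 16 higher and 0 lower at 7 hours, 9 higher and 1 lower at 9 hours, and 4 higher and 0 lower at 11 hours. The share called higher at 7 hours was 37.2%, against 13.4% of all features and 35.1% of the members, and the median log2 fold change was 0.18. *PDIA5*, a further disulfide isomerase, had 33.6 and 35.8 CPM with dex at 7 hours against 18.1 and 18.6 with EtOH (log2 fold change 0.92, SE 0.12, edgeR adjusted p = 1.81e-07). *CREB3L2*, a membrane-bound TF of the secretory pathway, had 170 and 180 against 117 and 114 CPM (0.60, SE 0.079, edgeR adjusted p = 2.50e-07).

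Of 27 tested other ATF4 and amino acid response genes, 2 were called higher and 3 lower at 3 hours, 3 higher and 10 lower at 5 hours, 3 higher and 5 lower at 7 hours, 2 higher and 5 lower at 9 hours, and 1 higher and 2 lower at 11 hours. At 5 hours 37% were called lower, against 11.7% of all features, and the median log2 fold change was -0.22. *SLC7A11*, the cystine transporter, had 148 and 113 CPM with dex at 5 hours against 498 and 585 with EtOH (log2 fold change -2.05, SE 0.12, edgeR adjusted p = 3.42e-15). *GDF15*, a secreted stress cytokine, had 0.546 and 0.672 against 5.14 and 2.67 CPM (-2.63, SE 0.44, edgeR adjusted p = 7.64e-06). In the other direction, *DDIT4*, an inhibitor of mTORC1, had 220 and 199 against 99.6 and 79.9 CPM (1.23, SE 0.11, edgeR adjusted p = 2.46e-12), and *KLHL24* had 14.9 and 14.6 against 10.1 and 10.4 (0.52, SE 0.18, edgeR adjusted p = 0.0323).

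**Figure D4:**
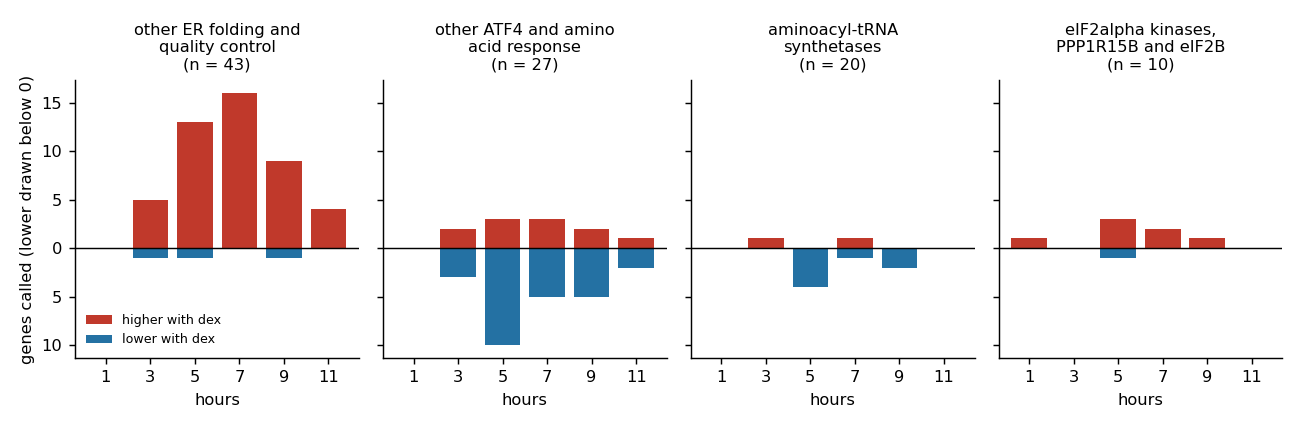
Number of genes called higher (red, above 0) and lower (blue, drawn below 0) with dex at each time point in the 4 lists of other pathway genes, with the number tested above each panel. Calls among the other ER folding genes are nearly all higher, with 16 at 7 hours, and those among the other ATF4 genes are mostly lower, with 10 at 5 hours.

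The cytosolic aminoacyl-tRNA synthetases charge tRNAs and include known ATF4 targets. Of 20 tested, 1 was called higher at 3 hours, 4 lower at 5 hours (20.0%, against 11.7% of all features), 1 in each direction at 7 hours and 2 lower at 9 hours. *TARS* had 140 and 142 CPM with dex at 5 hours against 185 and 172 (log2 fold change -0.34, SE 0.10), and *YARS* 95.3 and 89.9 against 125 and 111 (-0.35, SE 0.11). Of the 10 other eIF2α kinases, phosphatase partners and eIF2B subunits, 1 was called higher at 1 hour, 3 higher (30.0%, against 11.4% of all features) and 1 lower at 5 hours, 2 higher at 7 hours and 1 higher at 9 hours. *PPP1R15B*, the constitutive partner of the eIF2α phosphatase, had 193 and 191 CPM with dex at 5 hours against 135 and 143 (0.47, SE 0.10, edgeR adjusted p = 0.000401), and *EIF2B4* had 28.2 and 28.7 against 21.2 and 20.1 (0.47, SE 0.14). *EIF2AK2*, the eIF2α kinase PKR, had 200 and 156 against 214 and 249 CPM (-0.38, SE 0.11, edgeR adjusted p = 0.0132).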

How the data were processed

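The authors mapped 50-base single-end reads of stranded poly-A libraries to GENCODE release 19 transcripts with Bowtie and counted reads per transcript with samtools. The deposited counts are not normalized. The labels name hg19, and the table holds no coordinates. How reads matching several transcripts were placed, and whether strand was used, is not given in the sources used here, so transcripts of a gene were summed. Pseudogenes of *ATF4*, *XBP1*, *ASNS*, *PSAT1* and *PSPH* had 0 rows in the table, so reads shared with them would count for the member; *PDIA3P1* had 1 row with 241 counts. The labels' treatment text gives 1 hour for every library, and the duration label was used. The study's methods state triplicates, while 2 libraries per group were analysed here.

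Symbols and coordinates are from GENCODE release 29 on GRCh38, matched to 110262 transcripts holding 94.1% of counts. The row for unplaced reads held 0. Groups came from treatment and duration labels. Counts were scaled by TMM and tested with edgeR 4.0.16 in R 4.3.3 (quasi-likelihood F-test, robust, two-sided). Low features were removed with filterByExpr given the 12 groups. Time points were fitted separately, and Benjamini-Hochberg adjustment ran over 19897 features with a threshold of 0.1. Standard errors were derived from F, as the size of the log2 fold change over its square root. The biological coefficient of variation was 6.48% (7 hours) to 12.7% (11 hours). In data simulated for 5 hours, 2-fold and larger changes were put into some of the better counted of 19897 features. The test recovered 97% of the 2-fold changes, and 10.9% of 221 calls were false. Changes of less than 2-fold, as most calls here were, and changes in features of low level were not simulated.

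The members and lists were chosen with earlier results of these data known. All members are named, and of other lists the 2 per direction with the smallest p at the time point with most calls. Alternatives were DESeq2 1.42.0, its size factors, no filter, at least 10 counts per library, a joint fit of the 24 libraries, a block for replicate number, calls at 0.05, the transcript with most counts per gene, and leaving out each library. Figures were drawn with matplotlib 3.10.9.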

Additional observations from a re-analysis of the deposited data

Results flagged for a closer look

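The dex effect on 8 members differed between the time points by edgeR's quasi-likelihood test of the 5 interaction terms with Benjamini-Hochberg adjustment. The adjusted p was 4.87e-05 for *EIF2AK3*, 0.00687 for *ASNS*, 0.0111 for *ATF3*, 0.0269 for *PSAT1*, 0.0411 for *HSPA5*, 0.0786 for *ATF6*, 0.0854 for *DNAJC3* and 0.0880 for *HERPUD1*. For *EIF2AK3* the log2 fold change was 0.32 at 1 hour and 1.53 at 9 hours. *ASNS* went from 0.16 at 1 hour to -0.60 at 5 hours and 0.019 at 9 hours. *ATF3* had 1.07 at 1 hour and -1.06 at 11 hours, in libraries of at most 5.32 CPM. *HSPA5* had 0.45 at 5 hours and 0.067 at 11 hours. With 2 libraries per group, no group was large enough for a test of single libraries that stand apart.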

How the results depend on the processing

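Over the 12 alternatives 0 of the 52 calls of a member at a time point changed direction, and 15 kept their call under every alternative. The calls kept were 50 of 52 with DESeq2's size factors, 49 without a filter, 51 with at least 10 counts in every library, 37 in one fit over 24 libraries, 37 at a threshold of 0.05, 33 with the leading transcript of each gene and 25 with DESeq2. DESeq2 called 2 members at 3 hours (5.41%, against 6.65% of all features), 7 at 5 hours (18.9% against 13.4%) and 11 at 7 hours (29.7% against 13.7%). It called 4 at 9 hours (10.8% against 10.2%) and 1 at 11 hours (2.7% against 5.89%). One fit over 24 libraries called 3 at 3 hours, 9 at 7 and 10 at 11 hours. A threshold of 0.05 left 9 at 5 hours, 5 at 9 and 1 at 11 hours, 5 for the interaction and 0 for the EtOH time course. The leading transcript gave 3 at 3 hours, 10 at 7, 7 at 9 and 4 for the interaction. Without a filter 1 was called at 1 hour and 5 in the EtOH time course. Leaving out 1 library gave 0 to 0 calls at 1 hour, 1 to 3 at 3 hours, 8 to 9 at 5, 8 to 8 at 7, 5 to 14 at 9, 4 to 13 at 11 hours, 4 to 19 for the interaction and 0 to 7 for the EtOH time course. These are joint fits over 23 libraries (or the other EtOH libraries), so for the single time points they change the fit as well as the library and compare with the joint fit over 24, and the lone library of a group is assumed to vary like the rest. The number of all features called also differed between these fits. The cause of the differences between the alternatives was not tested, except that the threshold of 0.05 is by construction stricter.

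The deviations of same-numbered libraries of dex and EtOH had correlations of 0.135 at 1 hour and 0.102 at 9 hours. At the other time points these lay between -0.059 and 0.026. The study's methods describe the EtOH control as paired, and whether the replicate numbers pair the libraries was not settled. The main test used no pairing. With the replicate number as a block, 50 of 52 calls were kept, and the count was 1 at 1 hour, 3 at 3 hours and 17 at 9 hours. With 2 libraries per group and a coefficient of variation of 12.7% at 11 hours, small changes at that time point were hard to detect.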
